A study of Saccharomyces cerevisiae with 64 samples.

Results

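Spp1 lacking its PHD finger was compared with full-length Spp1 by chromatin immunoprecipitation and sequencing (ChIP-seq) in diploid budding yeast of the SK1 background, at 0, 2, 4 and 6 h in sporulation medium (SPM). The members were the peak lists of PHD-deleted Spp1-myc and of Spp1-myc at those 4 times, chosen by the strain, medium and time in the labels. These were 8 of the 62 libraries with a peak list. The question was which genes and gene parts hold Spp1 with and without the PHD finger. The PHD-deleted strain was Mata/alpha and homozygous for spp1PHDΔ-13xmyc-KanMX4, and the full-length strain was Mata/alpha and homozygous for SPP1-13xmyc-KanMX4. Both strains carried leu2/LEU2, HIS4/his4, trp1/trp1 and ura3/ura3. Anti-myc antibody was used for both. Cells were moved from rich medium to pre-sporulation medium and then to potassium acetate, and slow cultures had been set aside by the submitters. No copy of SPP1 without a tag was present in either strain, so the tagged protein was the only Spp1. Signal unrelated to the tag was not assessed, since no untagged library was compared.

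Spp1 is a subunit of Set1C, the complex that methylates lysine 4 of histone H3. Its PHD finger binds trimethylated lysine 4, a mark found over the first part of transcribed genes, and its CXXC domain lies in the part of the protein that contacts Mer2, a protein of the meiotic chromosome axis. In meiosis Spp1 is known to connect marked chromatin with the axis, where Spo11 makes the DNA breaks that start recombination.

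Each strain had 1 library per time, so no value below has a replicate of its own. The replicate spread is given from another strain of the series, Spp1-HA over wild-type H3 supplied from a plasmid, which had 2 libraries at each of the same times, with another tag and antibody. That strain also held more meiotic and sporulation genes at some times, as given below, so it is not a like-for-like replicate of the myc strains. Values of 4 further strains in the same medium and times are given beside some results: Spp1-myc lacking its CXXC domain and Bre2-myc, another Set1C subunit, with 1 library per time, and Spp1-HA over H3K4R or H3R2A, histone H3 changed at lysine 4 or at a nearby arginine, with 2 libraries per time. The only test across the 4 times was an exact two-sided permutation test that swapped the strains within each time. It has 16 arrangements, of which 2 are always as extreme as the data, so it could not pass 0.05. Read counts are not part of the lists. Depth is therefore unknown, and a gene without a listed peak is not shown to lack Spp1. The deletion itself cannot be checked in peak lists, and SPP1 held no peak in any of the 8 libraries. HHT1 and HHT2, the histone H3 genes, were on 4 of 4 lists for each strain.

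Fewer peaks were listed without the PHD finger at every time. The PHD-deleted lists held 1382, 905, 772 and 798 peaks at 0, 2, 4 and 6 h, and the full-length lists 2119, 1163, 1295 and 1161. The log2 ratio of PHD-deleted to full-length averaged -0.57 ± 0.16 (SD over 4 times), lower at 4 of 4 times, the most extreme outcome the exact permutation test allows, with 2 of 16 arrangements as extreme. The 2 replicates of the H3 wild-type strain differed by less at 0 and 2 h and by more at 4 and 6 h: replicate 2 held 1450, 1302, 780 and 642 peaks and replicate 1 held 2064, 1520, 1369 and 1414. The length covered by peaks was 503, 392, 249 and 255 kb in the PHD-deleted lists, against 694, 484, 428 and 363 kb in the full-length lists.

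Most PHD-deleted peaks lay where full-length Spp1 also had one, and a smaller share of full-length peaks lay where PHD-deleted Spp1 had one. At 0 h, 88.9% of PHD-deleted peaks shared at least 1 bp with a full-length peak (Wilson 95% interval 87.1 to 90.4, counting error only). The shares were 78.9% at 2 h, 85.9% at 4 h and 76.2% at 6 h. In the other direction, 58.1% of full-length peaks overlapped a PHD-deleted peak at 0 h (interval 56.0 to 60.2). The shares were 61.1% at 2 h (58.3 to 63.9), 51.0% at 4 h (48.2 to 53.7) and 51.7% for the last time (48.8 to 54.5). Replicate 2 of the H3 wild-type strain held 54.5%, 60.4%, 40.5% and 33.7% of the peaks of its replicate 1. The share of full-length peaks found without the PHD finger was above the share between these replicates at each of the 4 times. In the other histone strains replicate 2 held 87.2%, 82.6%, 63.0% and 89.9% of replicate 1 peaks for H3K4R, and 57.7%, 59.5%, 49.5% and 54.6% for H3R2A. There the replicate 1 list was the shorter at 0, 2 and 6 h for H3K4R and at 6 h for H3R2A. The full-length list was the longer at every time. In the other direction, replicate 1 held 67.5%, 52.0%, 67.3% and 40.9% of replicate 2 peaks for H3K4R. For H3R2A it held 69.0%, 62.7%, 58.0% and 44.9%. With both lists of a time reduced to the length of the shorter one by score, 74.4%, 69.7%, 68.3% and 62.7% of full-length peaks overlapped a PHD-deleted peak.

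**Figure D1:**
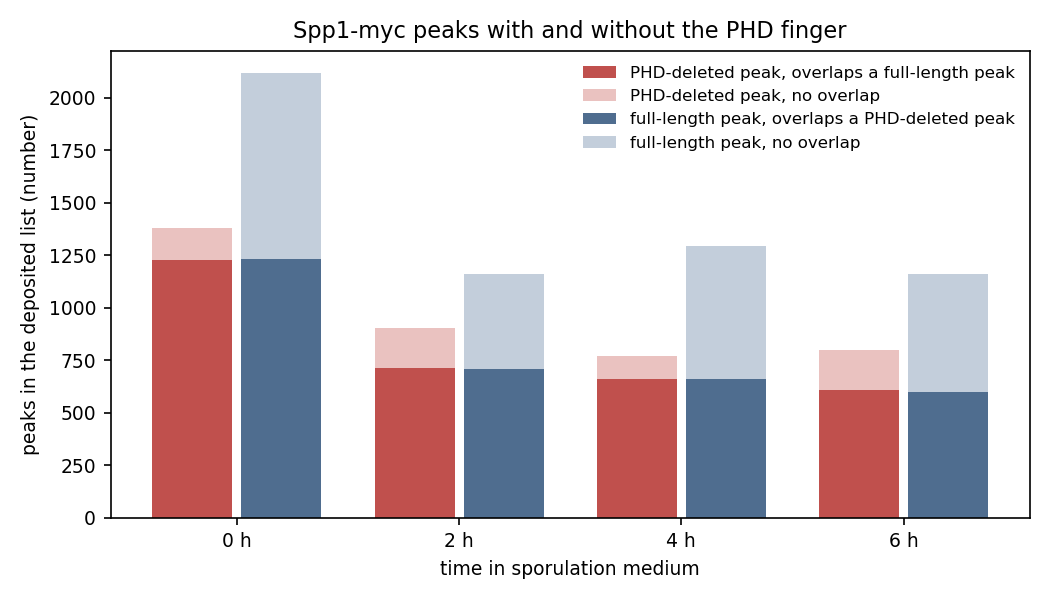
Number of peaks (y axis) at each time in SPM (x axis), with the PHD-deleted list on the left and the full-length list on the right of each pair; the dark part of a bar is peaks that overlap the other strain's list. The dark parts are nearly level within each pair, with 1228 PHD-deleted and 1232 full-length peaks at 0 h, and the pale parts are larger for full-length Spp1, with 154 PHD-deleted and 887 full-length peaks at 0 h.

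The full-length peaks without a PHD-deleted partner tended to be low-ranking and narrow, though not all were. At 0, 2, 4 and 6 h, 54.5%, 50.4%, 61.9% and 57.4% of them spanned up to 150 bp, against 14.0%, 16.5%, 22.0% and 24.3% of those with a partner. The deposited score, a fraction from 0.5 to 1 that is the authors' own, was used only to rank peaks within a list, with width deciding between equal scores. Among the top 20% of full-length peaks by rank, 87.0% were found in the PHD-deleted list at 0 h, 93.1% at 2 h, 90.7% at 4 h and 89.7% at 6 h. Among the bottom 20%, the shares were 23.2%, 31.5%, 18.9% and 24.6%. The H3 wild-type replicates showed a decline of the same kind, with 81.1%, 86.2%, 75.5% and 72.4% of the top 20% and 27.7%, 31.6%, 15.8% and 10.3% of the bottom 20% found in the other replicate.

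**Figure D2:**
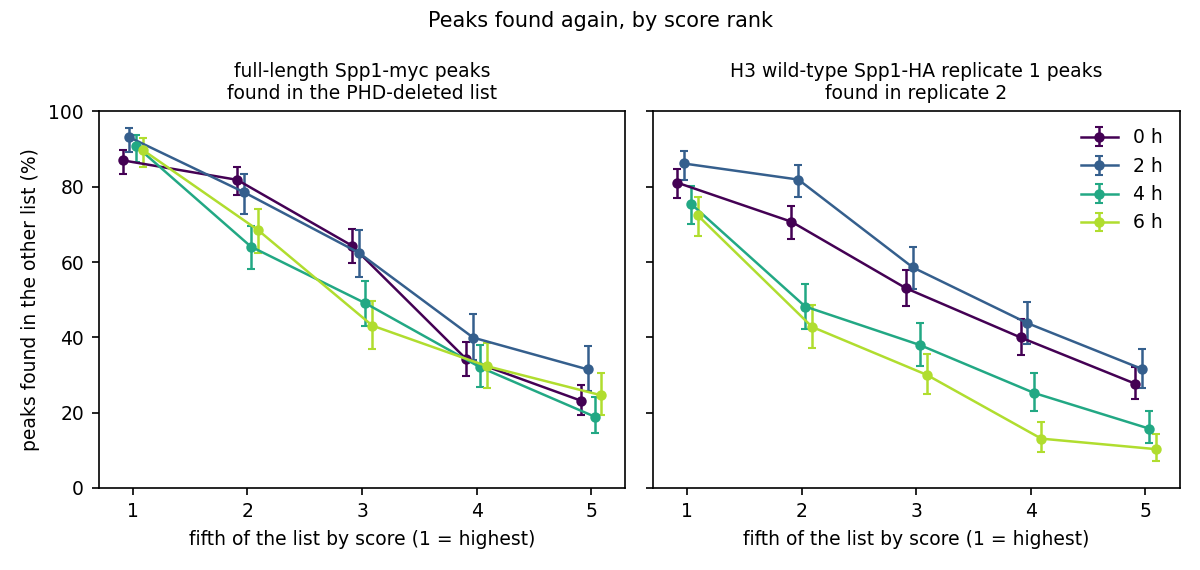
Share of peaks found in the other list (y axis, percent, bars are Wilson 95% intervals) by rank class, each 20% of the list, 1 being the highest scores (x axis), at 4 times; left, full-length Spp1-myc peaks in the PHD-deleted list, and right, H3 wild-type replicate 1 peaks in replicate 2. Both panels fall with rank, on the left between 87.0% and 93.1% for the top class and between 18.9% and 31.5% for the lowest.

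Wide full-length peaks had a partner more often than narrow ones. This is not separate from rank, since width decided between equal scores. A score of 1 was held by 12.4%, 22.4%, 19.2% and 10.4% of full-length peaks at 0, 2, 4 and 6 h. A wide peak also meets an overlap of 1 bp more easily, and how much this adds was not tested. Of full-length peaks spanning more than 1000 bp, 22 of 25 had a PHD-deleted partner at 0 h, 69 of 72 at 2 h, 46 of 47 at 4 h and 34 of 35 at 6 h. Of those spanning up to 150 bp, 172 of 655 did at 0 h and 146 of 468 at 6 h. Where 1 peak matched 1 peak, the PHD-deleted one was more often the narrower: narrower in 604 and wider in 362 of 1179 pairs at 0 h, and narrower in 371 and wider in 109 of 610 pairs at 4 h. The H3 wild-type replicates were uneven too, though not in the same direction at every time. Replicate 2 was narrower in 409 and wider in 485 of 1077 pairs at 0 h, and narrower in 271 and wider in 106 of 503 pairs at 4 h. The median width over whole lists went the other way, at 301, 301, 226 and 251 bp for PHD-deleted and 251, 301, 201 and 201 bp for full-length Spp1.

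Of the 6002 coding genes, a gene was counted as holding Spp1 if the midpoint of any peak fell between 500 bp upstream of its coding start and its coding end. PHD-deleted Spp1 was found at 1319, 777, 657 and 680 genes at 0, 2, 4 and 6 h, and full-length Spp1 at 2040, 1032, 1091 and 995. Both forms shared 1200, 655, 575 and 533 genes. Genes with PHD-deleted Spp1 only numbered 119 (1.98% of coding genes), 122 (2.03%), 82 (1.37%) and 147 (2.45%), or 9.02%, 15.7%, 12.5% and 21.6% of the genes with PHD-deleted Spp1. Genes with full-length Spp1 only numbered 840 at 0 h (14% of all coding genes), 377 at 2 h (6.28%), 516 at 4 h (8.6%) and 462 at 6 h (7.7%). Read against the genes with full-length Spp1, those without PHD-deleted Spp1 were 41.2%, 36.5%, 47.3% and 46.4%. This is the background for members that lack PHD-deleted Spp1 in every list below. For members with PHD-deleted Spp1 only, the background is the 9.02%, 15.7%, 12.5% and 21.6% given above.

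The genes that held full-length Spp1 throughout the time course mostly held PHD-deleted Spp1 at every time too. Of 371 genes with full-length Spp1 at all 4 times, 247 (66.6%) had PHD-deleted Spp1 at all 4, 63 at 3, 36 at 2, 23 at 1 and 2 at none. Genes held at 0 h but never later numbered 659 for PHD-deleted and 990 for full-length Spp1, and 400 had that pattern in both, which is 60.7% of the PHD-deleted and 40.4% of the full-length ones. Of genes with a peak at 6 h only, 153 were found for PHD-deleted and 284 for full-length Spp1, and 52 were in both lists, which is 34.0% of the PHD-deleted and 18.3% of the full-length ones.

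The highest-ranking of the 247 genes held by both forms at every time included genes of growth on acetate and a few cell wall and metal genes. ALD4, the mitochondrial aldehyde dehydrogenase of acetate formation, had a mean score percentile of 98.9 in PHD-deleted and 99.3 in full-length lists, where 100 is the top of a list. Its peaks were 1751, 1601, 1351 and 1251 bp wide in the PHD-deleted lists and 1251, 1851, 1801 and 1201 bp wide in the full-length lists. At 4 h the PHD-deleted ALD4 peak lay at chrXV:1039750-1041100 and the full-length one at chrXV:1039601-1041401 (sacCer3), over the coding region. ACS1, the acetyl-CoA synthetase used on acetate, had mean percentiles of 99.5 with PHD-deleted and 95.9 with full-length Spp1. ICL1, the isocitrate lyase of the glyoxylate cycle, had 96.7 and 99.0 with PHD-deleted and full-length Spp1. The others named by the same rule were SED1, SIT1, ILV5, CIT2, MDH2, NCE103, ACH1, FLO11 and FBA1, all with a mean percentile in both strains of at least the 91.9 of ACH1 in the full-length lists. Each of these 12 genes also held Spp1-HA in 8 of 8 H3K4R and 8 of 8 H3R2A libraries. In H3 wild-type libraries SIT1 held it in 6 of 8, SED1 and FBA1 in 7 of 8, and the others in 8 of 8. Means over all 247 genes were 7.11 of 8 H3K4R, 6.82 of 8 H3R2A and 6.51 of 8 H3 wild-type libraries.

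No PHD-deleted peak was listed at any time at 41 genes that held full-length Spp1 at 3 or 4 times, which is 0.683% of coding genes and 5.25% of the 781 genes with full-length Spp1 at 3 or 4 times. The same count between replicate 2 and replicate 1 of the H3 wild-type strain was 49 of 963 genes, or 5.09%. Between the replicates of the H3R2A strain it was 18 of 464 genes (3.88%), and between those of the H3K4R strain 2 of 685 (0.29%). In the H3K4R strain replicate 1 was the shorter series, with 4336 peaks against 6088, whereas full-length Spp1 was the longer one. Genes of replicate 2 with none in replicate 1 were 58 of 1053 (5.51%) for H3K4R and 14 of 617 (2.27%) for H3R2A. With 1 time left out and 3 times then required, the count was 10 without 0 h, 26 without 2 h, 4 without 4 h and 36 without 6 h. SDH5, which encodes an assembly factor of succinate dehydrogenase, and OPI10, a gene tied to phospholipid regulation, held full-length Spp1 at all 4 times and PHD-deleted Spp1 at none. At SDH5 the full-length peaks at 0, 2 and 4 h were 101, 151 and 151 bp wide and ranked at percentiles 3.42, 53.2 and 48.9. At 6 h the SDH5 peak was 451 bp wide, at chrXV:196500-196950, with a percentile of 91.8. The OPI10 peak was 701 bp wide at 0 h, at chrXV:265450-266150 with a percentile of 95.2, and ranked at 18.5, 29.2 and 38.7 at the later times. Both genes thus ranked near the top of the full-length list at 1 time and lower at the other 3.

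The next 10 genes held full-length Spp1 at 3 times. TDH1, which encodes 1 of the isozymes of glyceraldehyde-3-phosphate dehydrogenase, had full-length peaks of 501 bp at 0 h, 351 bp at 2 h and 301 bp at 4 h in the first part of the coding region, with percentiles of 69.5, 61.4 and 74.4. Its sister gene TDH2 held PHD-deleted Spp1 at 3 times and full-length Spp1 at 4. PCL7, a cyclin of the Pho85 kinase, had full-length percentiles of 45.2, 56.8 and 70.9 at 0, 2 and 4 h. The others were CKB1, a regulatory subunit of casein kinase 2, VID24, which takes part in the degradation of gluconeogenic enzymes, RRP7, which acts in ribosomal RNA processing, MXR2, a mitochondrial methionine sulfoxide reductase, CYC7, the second isoform of cytochrome c, GSC2, a glucan synthase used in the spore wall, GAD1, glutamate decarboxylase, and COX15, which acts in heme A synthesis. Their mean percentiles over the full-length times ran between 49.4 for COX15 and 64.4 for CKB1. At single times these genes ranked as high as 99.7 for MXR2 at 6 h and 94.1 for GAD1 at 2 h.

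As a group the 41 genes were occupied by low-ranking peaks, and 5 of them (TDH1, RRP7, CYC7, GSC2 and GAD1) belonged to any of the 20 gene lists described further on. Their 136 pairs of gene and full-length peak, with 133 distinct peaks, had a median width of 151 bp and a median percentile of 30.9, and 1 peak overlapped a PHD-deleted peak, whose midpoint lay in a neighbouring gene. All 41 held full-length Spp1 at 0 h, 34 at 2 h, 40 at 4 h and 10 at 6 h. The mean percentile had a median of 38.4 over the 41 genes, against 61.8 over the 781 genes with full-length Spp1 at 3 or 4 times and 76.2 over the 247 held by both at every time. CDC37 and TAF10, next to each other on chromosome IV, shared full-length peaks and are not independent. With lists of equal length, 8 of the 41 stayed on the list: KTR4, RRP7, AIM7, MSS4, PCL7, TDH1, YTP1 and SDH5, and no other gene joined them.

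**Figure D3:**
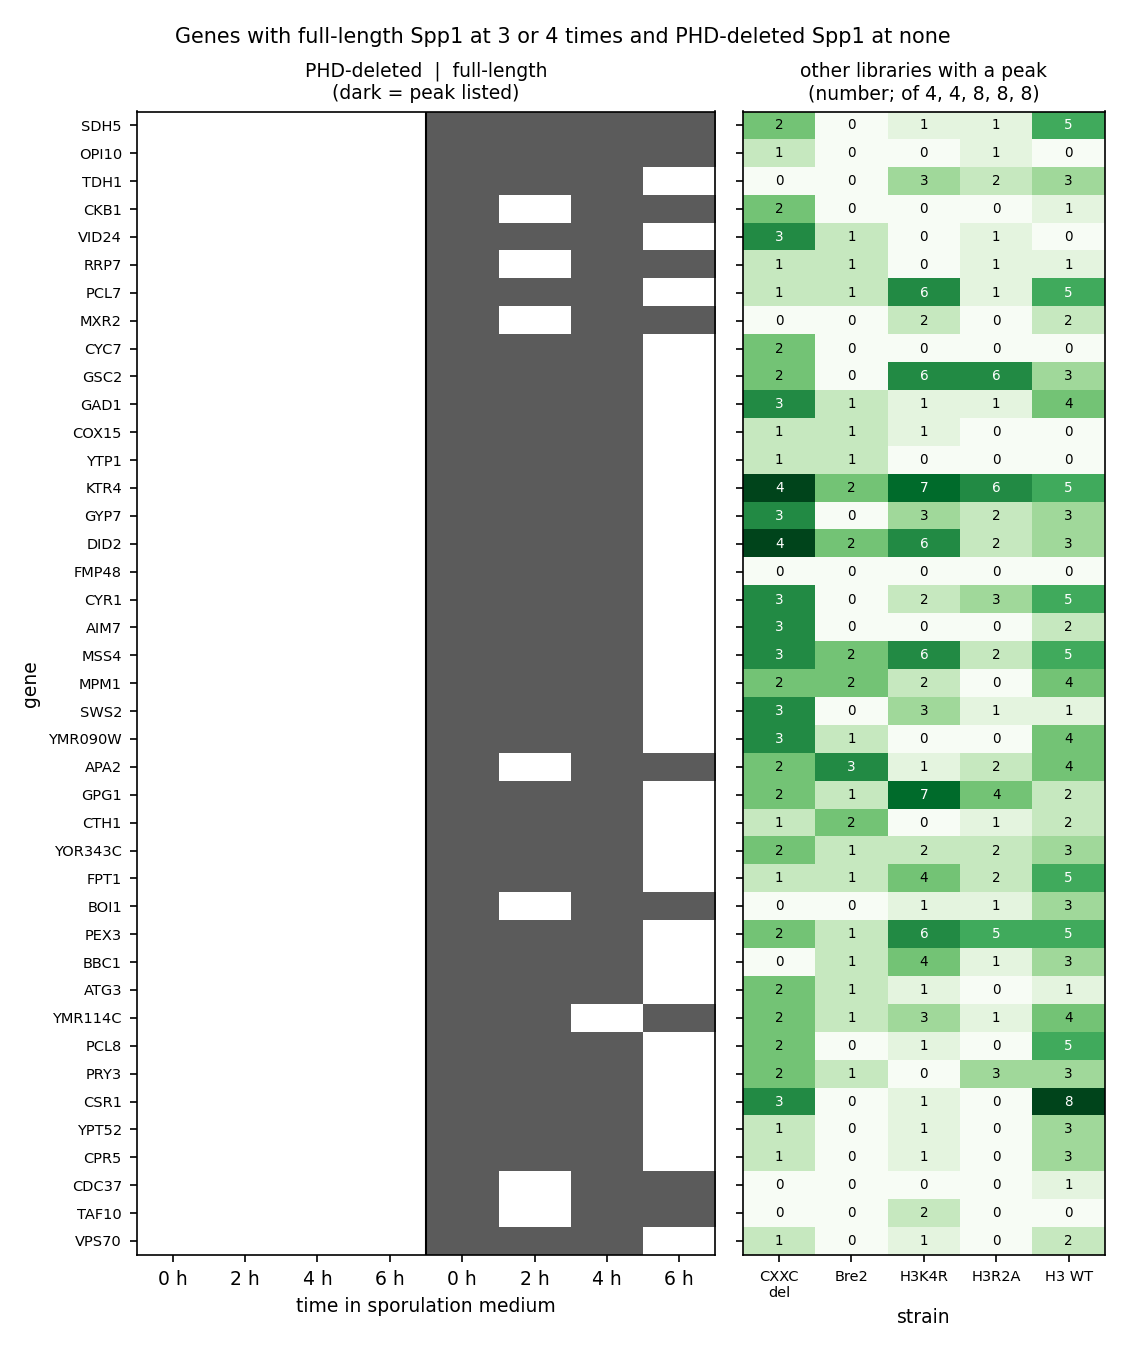
The 41 genes (rows) with full-length Spp1 at 3 or 4 times and PHD-deleted Spp1 at none. Rows are ordered by the number of full-length times and then by mean percentile, highest at the top. On the left, dark cells mark a listed peak at 0, 2, 4 and 6 h in the PHD-deleted and the full-length strain (x axis). On the right is the number of libraries of 5 other strains with a peak. The full-length side is dark at 0 h for all 41 genes and at 6 h for 10, and FMP48 has no peak in any library of the 5 other strains.

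The 41 genes held a peak in fewer libraries of the other strains than the 781 genes did. They held Spp1-HA in a mean of 2.07 of 8 H3K4R, 1.27 of 8 H3R2A and 2.76 of 8 H3 wild-type libraries. The 781 genes with full-length Spp1 at 3 or 4 times held it in 5.54, 4.75 and 5.22 of 8, and all coding genes in 1.59, 1.18 and 1.53 of 8. At least 1 H3 wild-type library held a peak at 34 of the 41. In the CXXC-deleted and Bre2-myc time courses, which are set against the same full-length libraries, the 41 genes held a peak in means of 1.73 of 4 and 0.68 of 4 libraries, the 781 genes in 3.22 and 2.85 of 4, and all coding genes in 0.76 and 0.61 of 4. KTR4, a mannosyltransferase gene, stood apart with peaks in 4 of 4 CXXC-deleted, 7 of 8 H3K4R and 5 of 8 H3 wild-type libraries. The corresponding counts of genes with full-length Spp1 at 3 or 4 times and none in the other strain were 15 for CXXC-deleted Spp1 and 43 for Bre2. CSR1, a lipid transfer protein gene, held a peak in 8 of 8 H3 wild-type libraries. These comparisons share the full-length lists and are not independent of each other.

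The reverse pattern was rare. SUL2, a sulfate permease gene, was the 1 gene (0.0167% of coding genes) with PHD-deleted Spp1 at 3 times and full-length Spp1 at none, against 6 genes for replicate 2 over replicate 1 of the H3 wild-type strain. Its PHD-deleted peaks lay at chrXII:324016-324166 at 2 h, chrXII:323722-324122 at 4 h and chrXII:323915-324265 at 6 h, in the first part of the coding region, with percentiles of 16.4, 56.8 and 51.3. SUL2 held Spp1-HA in 7 of 8 H3 wild-type libraries and a peak in 1 of 4 CXXC-deleted and 1 of 4 Bre2-myc libraries. A further 13 genes held PHD-deleted Spp1 at 2 times and full-length Spp1 at none, among them ICL2, a 2-methylisocitrate lyase gene, PAC11, a dynein subunit gene, PKH2, a protein kinase gene, MOT1, which encodes an ATPase that displaces TATA-binding protein, and SNF11, a SWI/SNF subunit gene. All 14 held Spp1-HA in at least 1 H3 wild-type library, MOT1 in 7 of 8.

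High-ranking peaks differed at single times. At 2 h the 4 highest with PHD-deleted Spp1 alone were SAM3, LYS2, MET17 and ACS2 with percentiles of 96.0, 95.6, 94.4 and 93.3. MET17, the sulfhydrylase of homocysteine synthesis, held PHD-deleted peaks of 451, 1151, 501 and 501 bp at 0, 2, 4 and 6 h, and full-length Spp1 at 6 h only, with peaks of 201 and 101 bp. MET17 held Spp1-HA in 8 of 8 H3 wild-type libraries and a peak in 3 of 4 CXXC-deleted and 3 of 4 Bre2-myc libraries. Among the 4 myc-tagged time courses, full-length Spp1 held MET17 at the fewest times. At 0 h the highest genes with PHD-deleted Spp1 alone were YHR007C-A, YIG1, RPS24B and RPL24A, at 4 h COX19, YHR173C, ICL2 and MET17, and at 6 h COX19, FBP1, CCT4 and PAC11. FBP1, the gluconeogenic fructose-1,6-bisphosphatase, held PHD-deleted Spp1 at 0, 4 and 6 h and full-length Spp1 at 0, 2 and 4 h.

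At 0 h the highest-ranking full-length peaks with no PHD-deleted peak at the gene were at STI1, BTN2, ZPR1 and HSP78, of which STI1, BTN2 and HSP78 act in protein folding or its control. The BTN2 peak spanned chrVII:772426-773626 with a percentile of 99.4, the ZPR1 peak chrVII:915126-916326 with 99.4, and the STI1 and HSP78 peaks had 99.8 and 98.7. HSP78 held PHD-deleted Spp1 at 2, 4 and 6 h, so 0 h was the 1 time without a listed peak. At 2 h the full-length peaks of TKL2 and GAD1 at percentiles 97.4 and 94.1, of HSP104 at 93.0 and of FMP48 at 92.3 had no PHD-deleted partner gene. HSP104, the disaggregase, had a 551 bp PHD-deleted and a 2251 bp full-length peak at 0 h, and at 2 and 4 h full-length peaks alone. At 6 h the 4 highest were MXR2, NBA1, NUF2 and SPO24, with percentiles of 99.7, 97.8, 97.8 and 97.6. The MXR2 and SPO24 peaks each overlapped a PHD-deleted peak whose midpoint lay outside the gene, whereas the peak shared by NBA1 and NUF2 overlapped none. At 4 h the 4 highest were NTG1, STE50, BDH2 and YHR007C-A, with percentiles of 96.5, 93.4, 91.7 and 90.7.

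Across 20 gene lists, loss without the PHD finger was unlike between lists and between times. At 0 h ribosomal protein genes held PHD-deleted Spp1 at 127 and full-length Spp1 at 107 of 137 members. Of the 127, 22 had PHD-deleted Spp1 only, among them RPS24B, RPL24A, RPL7A and RPS4A, where the background is 9.02% of genes with PHD-deleted Spp1. Of the 107, 2 lacked PHD-deleted Spp1, RPL15B and RPS31, or 1.87% against the background of 41.2%. Ribosome biogenesis genes went the other way at 0 h: 16 of 42 held PHD-deleted and 33 of 42 full-length Spp1. Of those 33, 18 lacked PHD-deleted Spp1, or 54.5%, among them ZPR1, NSR1, RRP5, RRP7, GAR1, NOP2 and ERB1. After 0 h both lists were nearly empty in both strains, with at most 10 PHD-deleted and 15 full-length ribosomal protein genes at any time.

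These counts sat beside a wide spread in other libraries at 0 h. Ribosomal protein genes held a peak at 2 members in replicate 2 and 106 in replicate 1 of the H3 wild-type strain, 106 in CXXC-deleted and 130 in Bre2-myc libraries. Ribosome biogenesis genes held one at 2 and 12 members in those replicates, 11 in CXXC-deleted and 24 in Bre2-myc libraries. Full-length Spp1, with 33, thus had the most ribosome biogenesis genes of these libraries at 0 h. With lists of equal length at 0 h, ribosomal protein genes numbered 127 for PHD-deleted and 79 for full-length Spp1, and ribosome biogenesis genes 16 and 22.

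**Figure D4:**
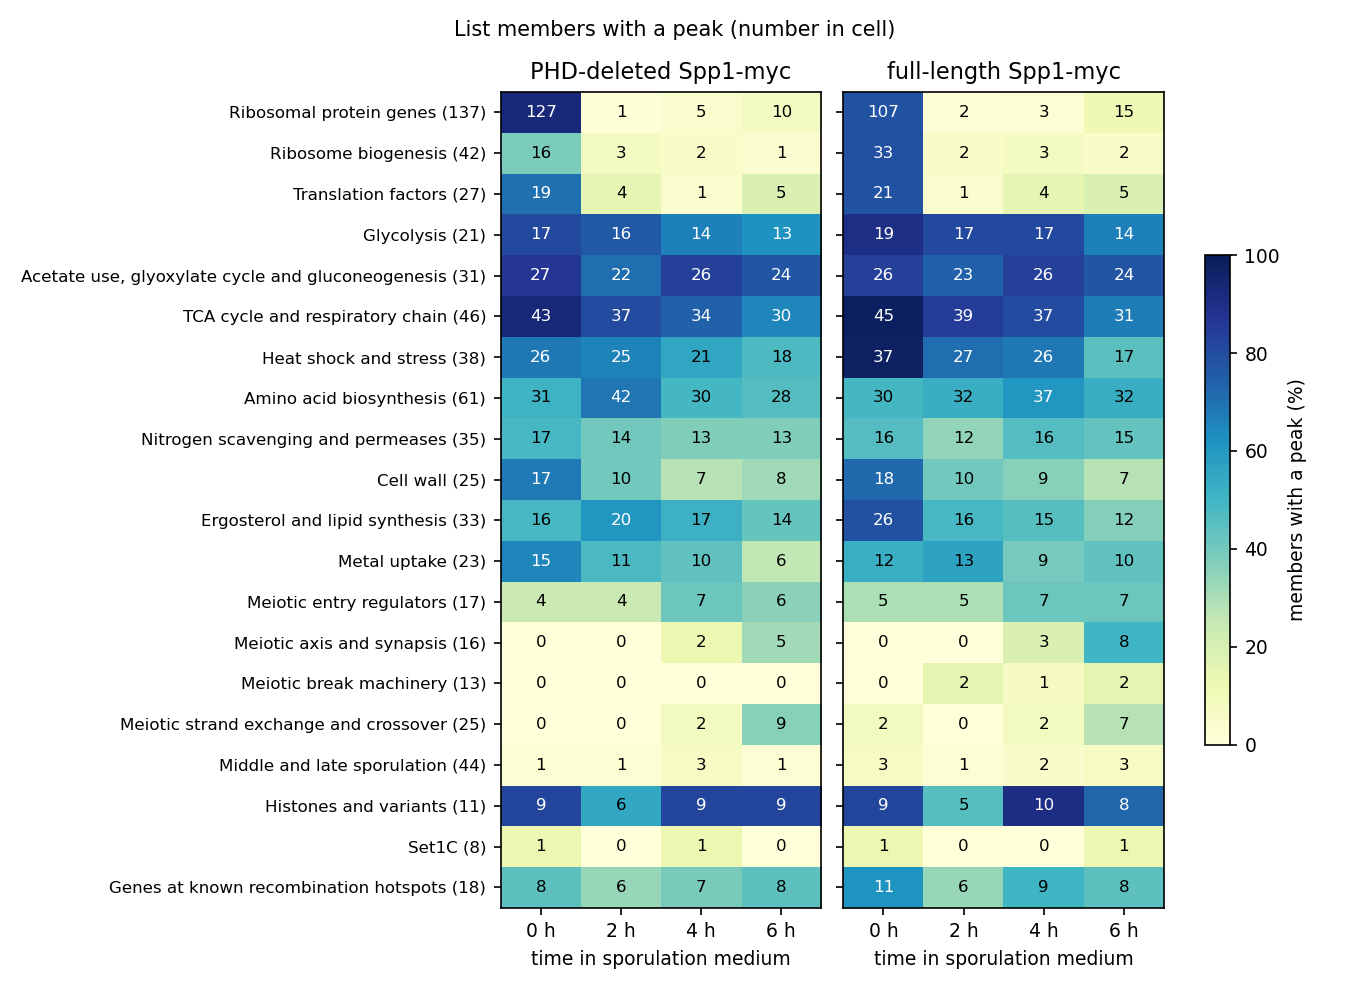
Members of 20 gene lists (rows, list size in brackets) with a peak at 0, 2, 4 and 6 h (x axis) for PHD-deleted (left) and full-length Spp1-myc (right); the colour is the percent of members and the number in a cell is their count. The panels are alike for acetate use, respiration and histones. In counts they differ most at 0 h for ribosomal protein genes (127 and 107), ribosome biogenesis (16 and 33) and heat shock (26 and 37). In percent they differ most at 0 h for ribosome biogenesis (38.1% and 78.6%). Ergosterol and lipid synthesis (48.5% and 78.8%) and heat shock (68.4% and 97.4%) follow.

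Heat shock and stress genes held PHD-deleted Spp1 at 26, 25, 21 and 18 of 38 members and full-length Spp1 at 37, 27, 26 and 17. At 0 h, 11 of the 37 lacked PHD-deleted Spp1, or 29.7% against a background of 41.2%, and these were GAD1, SSE2, BTN2, CUR1, HSP78, HSP26, HSP30, STI1, CTT1, SIS1 and DDR2. They hold chaperones, co-chaperones and the catalase CTT1. At 6 h 1 of 17 did. The H3 wild-type replicates had 23 and 34 members at 0 h, replicate 2 and replicate 1, and the CXXC-deleted and Bre2-myc libraries 33 and 30.

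Ergosterol and lipid synthesis genes held PHD-deleted Spp1 at 16, 20, 17 and 14 of 33 members and full-length Spp1 at 26, 16, 15 and 12. At 0 h 10 of the 26 lacked PHD-deleted Spp1, or 38.5% against a background of 41.2%, among them ERG1, ERG3, ERG5, ERG24, ERG25 and ERG26, enzymes of sterol synthesis. FAS2, the alpha subunit of fatty acid synthase, held PHD-deleted Spp1 at all 4 times and full-length Spp1 at 0 h only. ERG13, hydroxymethylglutaryl-CoA synthase, showed that pattern too. At 2 h the CXXC-deleted and Bre2-myc libraries had 25 and 24 members, above both the 20 of PHD-deleted and the 16 of full-length Spp1.

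Amino acid biosynthesis genes held PHD-deleted Spp1 at 31, 42, 30 and 28 of 61 members and full-length Spp1 at 30, 32, 37 and 32. At 2 h 11 of the 42 had PHD-deleted Spp1 only, where the background is 15.7% of genes with PHD-deleted Spp1. They were MET2, MET16, MET17, SAM1, SER1, ARG8, HIS5, HIS7, LYS2, LYS12 and LYS21. Of the 32 with full-length Spp1, 1 lacked the PHD-deleted form, or 3.12% against a background of 36.5%. At 4 h 10 of 37 lacked it, or 27.0% against 47.3%, among them HIS3, HIS4, HIS5, TRP5 and LYS2. HIS3 held PHD-deleted Spp1 at 2 h only and full-length Spp1 at all 4 times, and MET2 the reverse, with PHD-deleted Spp1 at all 4 times and full-length Spp1 at 6 h only. CXXC-deleted and Bre2-myc libraries had 45 and 49 members at 2 h, so the full-length library was the lowest of the 4 myc strains there. H3 wild-type replicate 2 had 29, 24, 18 and 13 members and replicate 1 had 38, 48, 41 and 24, a mean difference of 16.8 with the sign left aside, which is more than the difference between the Spp1 forms at any time.

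The carbon metabolism lists differed little. Genes that serve growth on acetate (acetate use, gluconeogenesis, glyoxylate cycle) held PHD-deleted Spp1 at 27, 22, 26 and 24 and full-length Spp1 at 26, 23, 26 and 24 of 31 members. Of those with full-length Spp1, 1, 2, 1 and 2 lacked the PHD-deleted form, between 3.85% and 8.70%. Those without it were ADR1 at 0 and 6 h, CAT8 at 2 and 4 h, FBP1 at 2 h and ACS2 at 6 h. CAT8 and ADR1 encode activators of these genes: CAT8 held PHD-deleted Spp1 at 0 h only and full-length Spp1 at 0, 2 and 4 h, and ADR1 held PHD-deleted Spp1 at 2 and 4 h and full-length Spp1 at all 4 times. Genes of the tricarboxylic acid cycle and respiratory chain numbered 43, 37, 34 and 30 for PHD-deleted and 45, 39, 37 and 31 for full-length Spp1, of 46, with CYC7 the 1 member missing at 3 times. Glycolysis genes numbered 17, 16, 14 and 13 for PHD-deleted and 19, 17, 17 and 14 for full-length Spp1, of 21. PFK26, HXK1, PFK1, PDC1, TDH1 and TDH2 were the glycolysis genes with full-length Spp1 alone at some time.

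The lists of uptake, cell wall and translation genes held small differences. Metal uptake genes held PHD-deleted Spp1 at 15, 11, 10 and 6 and full-length Spp1 at 12, 13, 9 and 10 of 23 members. At 6 h FRE1, a ferric reductase, held PHD-deleted Spp1 alone, and FIT1, FIT2 and FIT3, cell wall mannoproteins of iron uptake, and the metal transporters FET4 and SMF3 held full-length Spp1 alone. Nitrogen scavenging and permease genes numbered 17, 14, 13 and 13 for PHD-deleted and 16, 12, 16 and 15 for full-length Spp1, of 35. Cell wall genes numbered 17, 10, 7 and 8 for PHD-deleted and 18, 10, 9 and 7 for full-length Spp1, of 25. At 2 h 5 of the 10 cell wall genes in each list were in that list alone. They were CCW14, CWP1, EXG1, PST1 and TIR3 with PHD-deleted and CWP2, GSC2, PIR1, PIR3 and SPI1 with full-length Spp1. The backgrounds at 2 h were 15.7% of genes with PHD-deleted and 36.5% of genes with full-length Spp1. Translation factor genes numbered 19, 4, 1 and 5 for PHD-deleted and 21, 1, 4 and 5 for full-length Spp1, of 27.

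Among meiotic genes the counts were small. Of 13 genes of the break machinery, none held PHD-deleted Spp1 at any time, and full-length Spp1 was at 0, 2, 1 and 2 members. The full-length peaks were at REC107, which encodes Mer2 (2 and 4 h, percentiles 4.94 and 25.4), at SPO11, the break-forming enzyme (2 h, 25.2), at REC114 (6 h, 7.62) and at TEL1, a checkpoint kinase (6 h, 76.7). Apart from the TEL1 peak these ranked in the lower part of their lists, where a minority of full-length peaks had a partner. REC107 held Spp1-HA in 4 of 8 H3 wild-type libraries and a peak in 1 of 4 CXXC-deleted and 2 of 4 Bre2-myc libraries. SPO11 and TEL1 held none in any of these. The TEL1 peak lay at chrII:51279-51629, in the last part of the coding region. At 6 h genes of the axis and synapsis held PHD-deleted Spp1 at 5 and full-length Spp1 at 8 of 16 members, with GMC2 only in the PHD-deleted and SMC3, PDS5, ZIP1 and ZIP2 only in the full-length list.

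HOP1, an axis protein gene, held both forms at 4 and 6 h. Its 6 h peak was 751 bp wide in the PHD-deleted and 301 bp wide in the full-length list, with percentiles of 89.3 and 65.8. RED1 and REC8, the other axis genes named by rule, held neither. Genes of strand exchange and crossover numbered 9 for PHD-deleted and 7 for full-length Spp1 at 6 h, of 25, with HFM1, NDJ1 and SPO13 in the PHD-deleted list only and MEI5 in the full-length list only. IME1, the regulator of meiotic entry, held PHD-deleted Spp1 at all 4 times and full-length Spp1 at 2, 4 and 6 h. Genes of meiotic entry as a list numbered 4, 4, 7 and 6 for PHD-deleted and 5, 5, 7 and 7 for full-length Spp1, of 17, and middle and late sporulation genes 1, 1, 3 and 1 for PHD-deleted and 3, 1, 2 and 3 for full-length Spp1, of 44. The IME1 peak at 4 h had the same width in both, 501 bp, at chrX:605202-605702 for PHD-deleted and chrX:605200-605700 for full-length Spp1. The H3 wild-type strain differed from both myc strains in these lists. Its replicates 1 and 2 held 26 and 25 of the 44 middle and late sporulation genes at 6 h. At 2 h they held 6 and 14 of the 16 axis and synapsis genes, where neither PHD-deleted nor full-length Spp1-myc held any.

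Of 18 genes at known recombination hotspots, PHD-deleted Spp1 was at 8, 6, 7 and 8 and full-length Spp1 at 11, 6, 9 and 8. ARG4, LEU2, CDC19 and CCT6 held both forms at every time. At 0 h HIS2 held only PHD-deleted Spp1 and BUD23, ERG25, IMG1 and RIM15 only full-length Spp1, and at 4 h HIS4 and PES4 held only full-length Spp1. LEU2 and HIS4 are heterozygous in both strains, so a peak there cannot be assigned to 1 allele.

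A run of genes next to HIS4 on chromosome III, picked out after its values were seen, differed at 0, 4 and 6 h. From MXR2 through STE50 and RRP7 to HIS4 (chrIII:62776-68333), the PHD-deleted lists held 0, 1, 0 and 1 peaks at 0, 2, 4 and 6 h, and the full-length lists 3, 1, 7 and 2. The covered length was 0, 1651, 0 and 201 bp for PHD-deleted and 753, 1051, 1907 and 1802 bp for full-length Spp1. At 6 h the full-length peak over STE50 spanned chrIII:62923-64573 at percentile 99.7, and the PHD-deleted one chrIII:64156-64356 at 58.0. At 2 h the HIS4 peak was 1651 bp wide with PHD-deleted and 1051 bp wide with full-length Spp1. At 0, 4 and 6 h replicate 2 of the H3 wild-type strain had 1, 1 and 0 peaks over this stretch, and replicate 1 had 3, 0 and 0. CXXC-deleted lists had 1, 3 and 0 there and Bre2-myc lists 1, 1 and 0.

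A similar stretch ran from SDH5 through NBA1 to NUF2 on chromosome XV (chrXV:196507-200297), also picked out after its values were seen. It held no PHD-deleted peak at any time and 1, 1, 2 and 3 full-length peaks, with 1846 bp covered at 6 h. The largest, chrXV:198350-199500, lay between the divergent genes NBA1 and NUF2, a bud neck protein gene and a kinetochore gene, at percentile 97.8. CXXC-deleted lists held 0, 1, 1 and 1 peaks there, Bre2-myc lists none, and H3 wild-type replicates 1, 0, 1 and 0 (replicate 2) and 1, 1, 1 and 2 (replicate 1).

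Within genes, Spp1 without the PHD finger lay over the first part of the coding region more often than over the last, as full-length Spp1 did except at 6 h. Coding peaks in genes of 1000 bp or more were placed in 5 equal parts. In the first 20% of the coding region lay 46.7%, 28.1%, 42.5% and 33.7% of PHD-deleted and 56.7%, 35.2%, 37.2% and 27.3% of full-length coding peaks at 0, 2, 4 and 6 h. The difference averaged -1.36 percentage points over the 4 times, SD 8.44, lower at 2 and higher at 2 of them, with an exact permutation p of 0.75. In the last 20% lay 3.05%, 4.61%, 4.42% and 22.7% of PHD-deleted and 3.46%, 4.23%, 9.74% and 38.2% of full-length coding peaks, a mean difference of -5.19 points, SD 7.27, lower at 3 of 4 times, with an exact permutation p of 0.25. Without the 6 h libraries that mean was -1.79 points. At 6 h the interval of the share at gene ends was 18.9 to 27.0 for PHD-deleted and 34.4 to 42.1 for full-length Spp1, counting error only. Replicates 1 and 2 had 30.4% and 36.4% there for H3 wild type, 26.1% and 8.80% for H3R2A, and 8.09% and 5.95% for H3K4R. The H3R2A replicates thus lay further apart than the Spp1 forms, and the H3 wild-type and H3K4R replicates closer together. The CXXC-deleted and Bre2-myc libraries, set against the same full-length library, had 12.1% and 3.66% at gene ends at 6 h.

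**Figure D5:**
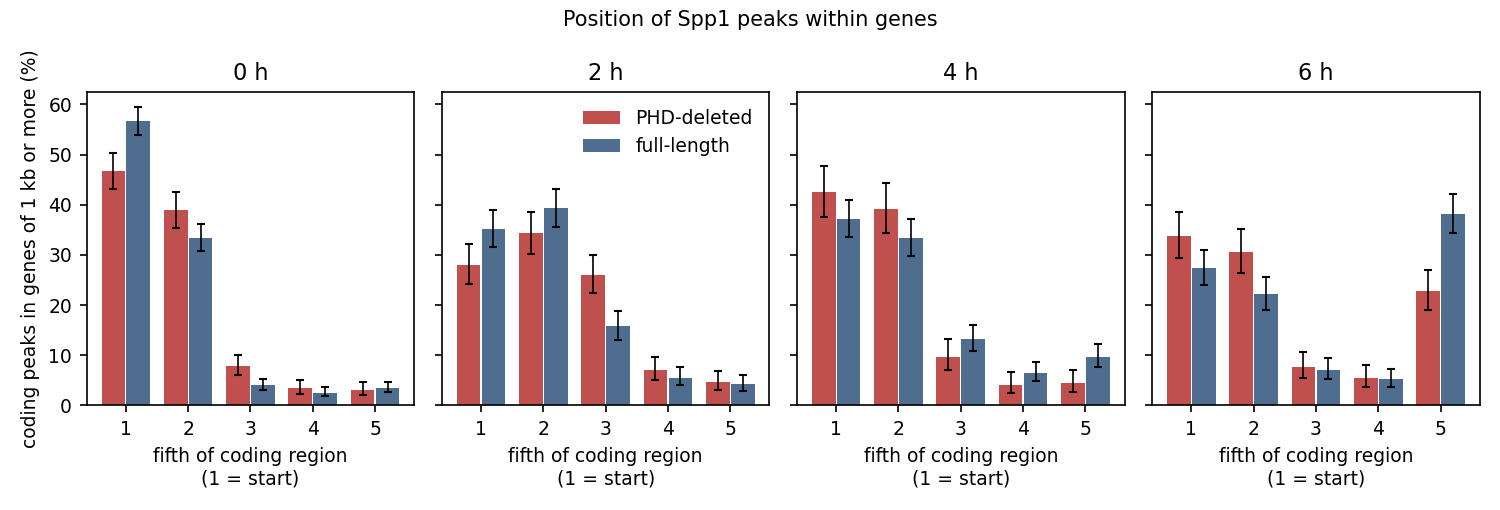
Share of coding peaks (y axis, percent, bars are Wilson 95% intervals) in each of 5 equal parts of genes of 1000 bp or more, 1 being the start (x axis), at 4 times, PHD-deleted left and full-length right of each pair. Parts 1 and 2 hold most peaks of both strains at 0, 2 and 4 h, and at 6 h the last part holds 22.7% of PHD-deleted and 38.2% of full-length peaks.

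Full-length peaks at gene ends were found without the PHD finger less often than those near gene starts at 4 and 6 h. Of full-length coding peaks at 6 h, 101 of 166 in the first part (60.8%), 90 of 135 in the second (66.7%), 30 of 43 in the third (69.8%), 10 of 32 in the fourth (31.2%) and 71 of 232 in the last (30.6%) overlapped a PHD-deleted peak. At 4 h, 110 of 241 in the first part (45.6%) and 9 of 63 in the last (14.3%) did. At 6 h, in the higher-scoring 50% of the list, 72 of 88 peaks in the first part (81.8%) and 53 of 111 in the last (47.7%) were found, and in the lower-scoring 50% 29 of 78 (37.2%) and 18 of 121 (14.9%). The H3 wild-type replicates had no such gap at 6 h: 56 of 237 peaks in the first part (23.6%) and 95 of 283 in the last (33.6%) of replicate 1 were found in replicate 2. Counted by gene, as given below, the H3R2A replicates did have a gap in this direction at 6 h. In the CXXC-deleted list, set against the same full-length library, 98 of 166 peaks in the first part (59.0%) and 22 of 232 in the last (9.48%) were found.

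Read from the other side, PHD-deleted peaks at gene ends were nearly all shared. Of 93 PHD-deleted peaks in the last part of genes at 6 h, 85 overlapped a full-length peak (91.4%), against 104 of 138 in the first part (75.4%). At 6 h 215 of the full-length peaks in the last part lay in genes whose downstream neighbour faces them, and 64 of these were found without the PHD finger, or 29.8%. Of the 16 with a tandem neighbour, 6 were found. Full-length end peaks that had a PHD-deleted partner included those at TOF1, a replication fork gene, and at STE5, the pheromone pathway scaffold, at percentiles 96.6 and 96.3. Both genes were chosen after their values were seen.

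Where both forms held a gene, they mostly held the same place in it. The highest-ranking peaks of a gene lay within 20% of its length of each other in 98.4% of 620 genes at 0 h, 89.3% of 335 at 2 h, 92.4% of 277 at 4 h and 94.9% of 295 at 6 h. The H3 wild-type replicates did so in 95.2%, 93.8%, 78.2% and 82.2% of genes. At 6 h the PHD-deleted peak lay nearer the start in PES4, at 10.5% of the coding region against 84.3% for the full-length peak, and in ADE17, at 41.6% against 92.5%. It lay nearer the end in CMK1, at 97.8% against 13.6%, in HPF1, at 87.2% against 11.4%, and in CAK1, at 78.7% against 8.23%. HPF1 held a peak at each end in both strains, and the higher-ranking of the pair differed. The PHD-deleted peaks of CMK1 and CAK1 had percentiles of 2.07 and 0.94. Both were thus among the lowest-ranking peaks of the list.

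Genes with a full-length peak at the end and none in the first 40% of the coding region numbered 200 at 6 h. PHD-deleted Spp1 was at the end in 58 of them (29.0%) and in the first 40% in none. CXXC-deleted Spp1 was at the end in 18 of the same 200 genes (9.0%) and Bre2-myc in 4 (2.0%). Of 163 such genes of H3 wild-type replicate 1, replicate 2 had an end peak in 51 (31.3%). For the H3R2A replicates it was 4 of 63 genes (6.35%), and for the H3K4R replicates 4 of 7 (57.1%). Of 267 genes with a full-length peak in the first 40% and none at the end, PHD-deleted Spp1 was in the first 40% of 175 (65.5%) and at the end of 5. For the same class of replicate 1 genes, replicate 2 had a peak in the first 40% of 69 of 264 genes (26.1%) for H3 wild type. It was 64 of 90 (71.1%) for H3R2A and 178 of 207 (86.0%) for H3K4R. Genes with both kinds of full-length peak numbered 29, of which 13 had a PHD-deleted peak in the first 40% and 9 at the end. No gene with a full-length end peak alone had a PHD-deleted peak near its start at the other 3 times either, where 21, 9 and 35 genes were in that class.

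Outside coding regions, peaks were counted before genes, between convergent genes and near tRNA genes. Of peaks on the 16 chromosomes, those whose midpoint fell in the 500 bp before a gene were 7.85%, 8.16%, 13.5% and 11.1% of PHD-deleted and 7.95%, 11.3%, 13.9% and 10.3% of full-length peaks. The mean difference was -0.73 points, SD 1.68, with an exact permutation p of 0.625. Peaks in the intervals between convergent genes were 14, 5, 6 and 13 for PHD-deleted and 11, 6, 14 and 39 for full-length Spp1, or 1.73% and 3.53% at 6 h. The mean difference over the 4 times was -0.39 points, SD 0.99, with an exact permutation p of 0.75, and without the 6 h libraries it was 0.08. All 13 PHD-deleted peaks between convergent genes at 6 h overlapped a full-length peak, while 17 of the 39 full-length ones overlapped a PHD-deleted peak. Within 250 bp of the 275 nuclear tRNA genes lay a peak at 0, 2, 4 and 1 genes with PHD-deleted and 1, 3, 6 and 2 with full-length Spp1.

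The genes of Set1C itself carried few peaks. SWD3 held PHD-deleted Spp1 at 0 and 4 h and full-length Spp1 at 0 h, and SDC1 held full-length Spp1 at 6 h only. SET1, BRE2, SWD1, SWD2, SHG1 and SPP1 held neither form at any time. The histone genes were held by both: 9, 6, 9 and 9 of 11 with PHD-deleted and 9, 5, 10 and 8 with full-length Spp1. HHF1, which encodes histone H4, held both forms at all 4 times, and HHF2 held PHD-deleted Spp1 at 4 and full-length Spp1 at 3.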

How the data were processed

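The 8 libraries were grouped by strain, medium and time as the labels give them, with 1 library per strain and time. Per the submitters' processing notes, the build was sacCer3, with BWA and deepTools listed and no versions. Which program called peaks, at what threshold and against what control is not given in the sources used here. Each deposited list holds 1 sample, with position, width in bp and a score, a fraction the authors give from 0.5 to 1. It was used as deposited, to rank peaks within a list, with width breaking ties. The labels give the myc and GFP antibody catalogue numbers one way in the sample fields and the other way in the protocol.

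Gene positions came from the RefSeq table of R64, the assembly behind sacCer3, with strand read from the locus tag. Peaks on a sequence named chrXVII, 31, 23, 44 and 48 in the PHD-deleted and 44, 21, 52 and 55 in the full-length lists, were kept in totals and overlaps and could not be placed in genes. A gene held Spp1 if a peak midpoint fell between 500 bp upstream and its coding end, so 1 peak between divergent genes can count for both. Overlap was at least 1 bp. Wilson 95% intervals and counts cover counting error over peaks only. No promoter or protein sequences were used here.

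Genes named were up to 12 lost, gained and kept genes in order of the times held and mean percentile, 4 per strain and time, 6 shifts each way at 6 h, up to 4 members per list with the largest difference, and a few fixed genes. List members counted within a class, and the 2 stretches on chromosomes III and XV, were named after their values were seen. The members and the 20 lists were chosen with earlier results of these data known, and 3 list names were not matched. Alternatives were lists of equal length, the higher-scoring 50%, other overlaps, windows and gene lengths, and leaving out a time. The functions were tested on simulated lists. Python 3.11.15, numpy 2.4.6, pandas 2.3.3 and scipy 1.17.1 were used.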

Additional observations from a re-analysis of the deposited data

Results flagged for a closer look

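In 4 results the difference between PHD-deleted and full-length Spp1 had 1 sign at both 0 and 2 h and the opposite sign at both 4 and 6 h, and the change of sign was not tested, since each time has 1 library per strain. The share of coding peaks in the first 20% of genes was lower for PHD-deleted Spp1 at 0 and 2 h, with a mean difference of -8.58 percentage points, and 5.87 points higher at 4 and 6 h, a change of 14.4 points. The share of peaks between convergent genes had mean differences of 0.27 and -1.05 points, a change of -1.32. Occupied amino acid biosynthesis genes had mean differences of 5.5 and -5.5 genes, a change of -11 genes, and occupied nitrogen scavenging and permease genes 1.5 and -2.5 genes, a change of -4 genes. With lists of equal length by score, neither gene list kept the change of sign. Amino acid biosynthesis genes then numbered 31, 42, 30 and 28 for PHD-deleted and 23, 29, 30 and 27 for full-length Spp1. Nitrogen genes numbered 17, 14, 13 and 13 for PHD-deleted and 15, 11, 14 and 12 for full-length Spp1. Replicate 2 and replicate 1 of the H3 wild-type strain differed by a mean of 16.8 amino acid biosynthesis genes and 5 nitrogen genes per time, sign left aside, which is more than either mean difference between the Spp1 forms.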

How the results depend on the processing

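The mean log2 ratio of peak numbers ran between -0.63 and -0.51 with 1 time left out. With lists of equal length by score or by width, the median width had a mean log2 ratio of -0.38 in place of 0.19. The difference in the first 20% of genes, -1.36 points, was 0.31 with equal lengths by score, 0.51 in genes of 2000 bp or more and between -3.95 and 1.54 with 1 time left out. The upstream difference of -0.73 points was 0.27 by score, 1.38 by width and between -1.23 and 0.066 with 1 time left out. The convergent difference of -0.39 points ran between -0.68 and 0.082, and the difference at gene ends of -5.19 between -7.05 and -1.79, with 1 time left out.

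The share of full-length peaks found without the PHD finger, 55.8% over the 4 times, was 69.6% with equal lengths by score, 69.7% by width, 54.4% in the higher-scoring 50%, 42.1% where overlap had to cover at least 50% of both peaks, and between 54.5% and 57.2% with 1 time left out. The share of PHD-deleted peaks found with full-length Spp1, 83.3%, was 70.7%, 71.0%, 80.4%, 62.6% and between 80.2% and 85.2% under the same settings. The 41 genes were 8 with equal lengths by score, 3 by width, 19 in the higher-scoring 50% and between 4 and 36 with 1 time left out. The 1 gene of the reverse pattern was 7 by score, 8 by width, 2 in the higher-scoring 50%, 2 with a window of 250 bp and between 0 and 3 with 1 time left out. Occupied members of the lists summed to a mean of -15 against full-length Spp1 and to 24.8 with equal lengths by score. The H3 wild-type replicates differed by a mean of 102 members in the same sum, sign left aside, which is more than either value. Equal lengths by width and leaving out chrXVII were chosen after seeing the data. Fewer peaks or fewer times enter these settings by construction; the cause of the other changes was not tested. No paired analysis was possible because the 8 libraries carry no replicate numbers to use as a block; the strains were matched by time alone, which the exact permutation test over times used. Depth is unknown, so differences in list length cannot be told apart from differences in depth or threshold.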
